A study of Homo sapiens with 12 samples.

Results

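The ABCC genes encode the multidrug resistance-associated proteins (MRPs), a branch of the ATP-binding cassette (ABC) transporters. The 9 members described here are ABCC1, ABCC2, ABCC3, ABCC4, ABCC5, ABCC6, ABCC10, ABCC11 and ABCC12. They were taken by name, matched through GENCODE 29 to the gene identifiers of the expression tables, and they are 9 of the 58735 genes listed. All 9 were found in both tables. RNA was sequenced from 12 libraries in 4 groups of 3. SK-BR-3 is an established breast cancer cell line with amplified HER2. SK/EPI cells descend from SK-BR-3 and were made resistant to the anthracycline epirubicin by long stepwise exposure to rising doses. In the other groups, SK/EPI cells received for 48 h either the control siRNA (SK/EPI-siNC) or siRNA targeting BCRP, the drug pump encoded by ABCG2 (SK/EPI-siBCRP). SK/EPI is a single resistant line, so a difference from SK-BR-3 belongs to this derivation. The labels do not say whether the 3 libraries of a group came from separate cultures, and the p-values measure only the spread between these libraries.

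MRPs sit in the plasma membrane and use ATP to move organic anions out of the cell. Many of their substrates carry a glutathione, glucuronide or sulfate group that a conjugating enzyme has added, and some drugs leave together with free glutathione. Beyond drugs, different members export leukotrienes, prostaglandins, bile acid and bilirubin conjugates, folates and cyclic nucleotides. In breast cancer the family is best known for ABCC1, one of the pumps that can move anthracyclines out of tumor cells.

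Between 15830381 and 20545811 reads per library fell on genes, as computed back from the deposited FPKM (read counts divided by exon length and by library size). The pumps that the study is about followed the labels. ABCB1, which encodes P-gp, had at most 2 reads in a parental library and 327 ± 1.83 FPKM in SK/EPI cells (mean ± SD, n = 3). ABCG2 was 0.0497 ± 0.0266 FPKM in SK-BR-3 cells and 34.1 ± 1.61 FPKM in SK/EPI cells, and it was 3.08 ± 0.345 FPKM in SK/EPI-siBCRP cells compared with 33.0 ± 0.673 FPKM in SK/EPI-siNC cells. Of 7 breast epithelial markers, 6 had a mean above 1 FPKM in every group, and CDH1 was at 0.0736 FPKM or less. The summed level of the 7 was 3903 to 4124 FPKM in SK-BR-3 and 2339 to 2466 FPKM in SK/EPI libraries, with mean levels of 659 and 133 FPKM for ERBB2, the HER2 gene, and 1651 and 509 FPKM for KRT19. PTPRC and PECAM1, defining markers of leukocytes and endothelium, stayed at or below 0.196 FPKM. The summed level of 4 immune markers lay between 26.8 and 28.5 FPKM in SK/EPI cells, nearly all of it CD14. In SK-BR-3 cells that sum lay between 0.890 and 0.987 FPKM, with means of 0.513 for CD14 and 0.347 for CD3E. The sum of 3 endothelial markers was 27.0 to 28.1 FPKM in SK/EPI and 6.67 to 6.99 FPKM in SK-BR-3 cells, nearly all of it CDH5. Their part in the results was not tested.

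ABCC mRNA in these cells consisted mainly of ABCC5 and ABCC1 in all 4 groups, with ABCC3 behind them. In SK-BR-3 cells ABCC5 stood at 33.3 ± 0.990 FPKM, ABCC1 at 31.4 ± 0.735 and ABCC3 at 7.33 ± 0.310, followed by ABCC10 at 3.84 ± 0.268, ABCC4 at 2.22 ± 0.163, ABCC11 at 2.12 ± 0.2003, ABCC2 at 0.778 ± 0.0257 and ABCC6 at 0.220 ± 0.0129. The ranges of neighbours in this order did not overlap, except those of ABCC4 and ABCC11. ABCC12 had no more than 2 reads in any of the 12 libraries, so its level was at or below what 3 reads give, 0.0217 FPKM at most. In SK/EPI cells ABCC1 moved ahead of ABCC5 in FPKM with no overlap (20.9 to 22.1 against 17.6 to 18.6 FPKM). ABCC2 moved ahead of ABCC4 and ABCC11. By recovered reads ABCC5 stayed ahead of ABCC1 in SK/EPI cells, at 43.0% against 33.9% of the reads of the family. FPKM divides by the merged exons, which are 11441 bases for ABCC5 and 7575 for ABCC1. In SK/EPI-siNC cells ABCC5 was again the highest member in FPKM, and in SK/EPI-siBCRP cells the FPKM ranges of ABCC5 and ABCC1 overlapped.

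**Figure D1:**
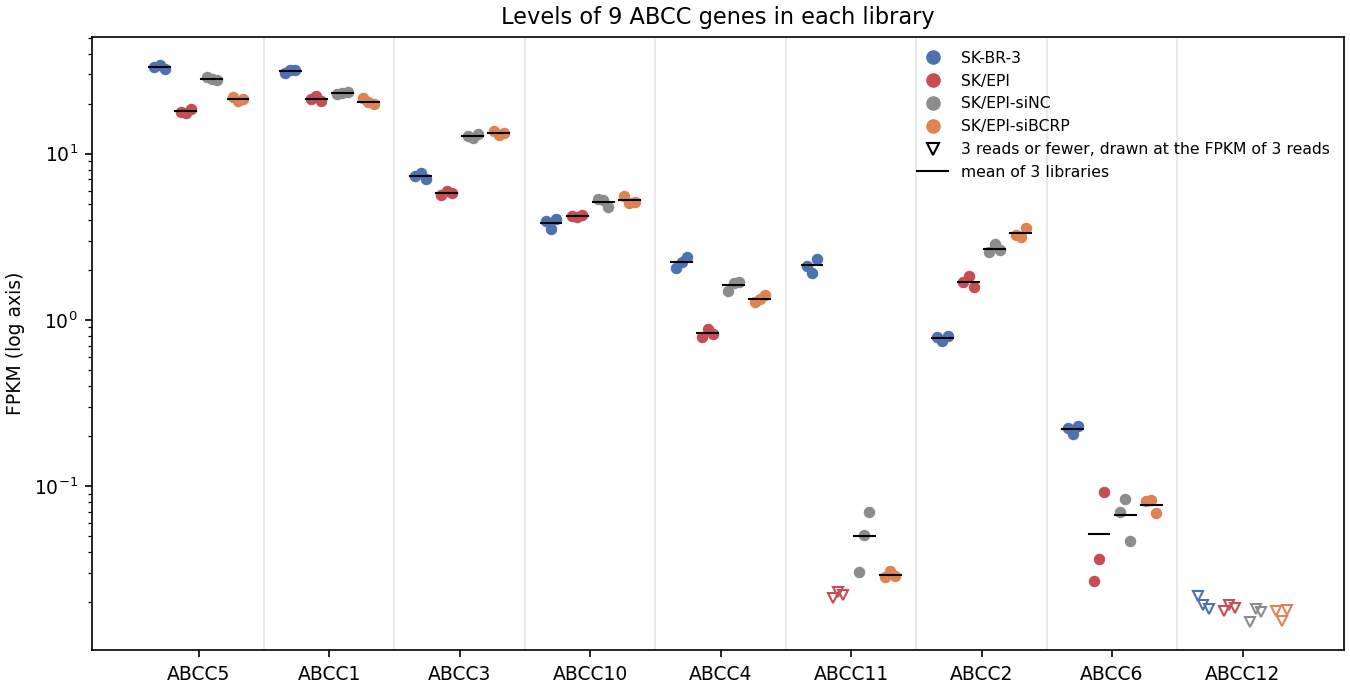
Level of each ABCC gene in each of the 12 libraries, in FPKM on a log axis, with the mean of 3 libraries as a line and libraries with 3 reads or fewer drawn as open triangles at the FPKM of 3 reads. ABCC5 and ABCC1 lie highest in every group, the 3 SK-BR-3 values of ABCC11 lie near 2 FPKM while SK/EPI had 2 reads at most, and ABCC12 lies at the floor throughout; the first 2 and the last 2 groups come from separate tables.

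The first comparison asks how the MRP genes differed between resistant and parental cells. Of the 8 members that could be tested in SK/EPI compared with SK-BR-3 cells, 6 were downregulated (ABCC1, ABCC3, ABCC4, ABCC5, ABCC6 and ABCC11), ABCC2 alone was upregulated, and ABCC10 was not called. Over all 15823 genes tested, 37.0% were lower and 37.9% were higher at an adjusted p under 0.05, so being called was common in this comparison. The median log2 fold change of the 8 members was -0.41, beside 0.01 over all genes tested. ABCC6 and ABCC11 met the read filter only through the SK-BR-3 libraries, where they were high. Being tested and being lower were thus tied for these genes, and they add no support to the count or the median. With 10 reads required in every library, ABCC6 and ABCC11 were not tested and 4 members were lower. Fold changes are on the scale of log2(FPKM + 1), which understates the change of genes near or below 1 FPKM, and the ratio of mean FPKM is given beside them. Adjusted p-values are from limma over all genes tested.

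ABCC1 and ABCC3 encode basolateral exporters, ABCC1 of glutathione conjugates, leukotriene C4 and anthracyclines, and ABCC3 mainly of glucuronides and bile acids. ABCC1 (chromosome 16, 15949577 to 16143074, plus strand, GRCh38) measured 30.6, 32.0 and 31.7 FPKM in SK-BR-3 cells and 21.3, 22.1 and 20.9 FPKM in SK/EPI cells. The groups did not overlap, and the resistant level was 0.682 times the parental level (log2 fold change -0.53, SE 0.03, adjusted p = 3.00e-06). ABCC3 (chromosome 17, 50634777 to 50692252, plus strand) measured 7.36, 7.62 and 7.002 FPKM in SK-BR-3 cells and 5.67, 5.998 and 5.77 FPKM in SK/EPI cells. It was the mildest of the falls by ratio, to 0.793 times the parental level, again without overlap (log2 fold change -0.29, SE 0.05, adjusted p = 0.000684).

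ABCC2 encodes the apical counterpart, known for carrying bilirubin glucuronides and other conjugates into bile. It lies on chromosome 10 (99782640 to 99852594, plus strand). Its level was 0.788, 0.749 and 0.797 FPKM in SK-BR-3 cells and 1.68, 1.84 and 1.58 FPKM in SK/EPI cells, so all 3 resistant libraries lay above all 3 parental ones. The ratio was 2.18 (log2 fold change 0.60, SE 0.06, adjusted p = 2.52e-05), with 232 to 260 reads in a resistant and 98 to 119 in a parental library. Even after this rise ABCC2 was a minor member, at 3.26% ± 0.228 of the summed FPKM of the 9 genes.

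ABCC4, ABCC5 and ABCC11 encode exporters of cyclic nucleotides, and all 3 were lower in SK/EPI cells. ABCC4 (chromosome 13, 95019829 to 95301475, minus strand), which also carries prostaglandins and nucleoside monophosphate analogs, measured 2.06, 2.23 and 2.38 FPKM in SK-BR-3 cells and 0.792, 0.884 and 0.816 FPKM in SK/EPI cells. Every resistant library lay below every parental one, at a mean of 0.373 times the parental level (log2 fold change -0.82, SE 0.06, adjusted p = 6.01e-06). ABCC5 (chromosome 3, 183919934 to 184018015, minus strand) measured 33.3, 34.4 and 32.4 FPKM in SK-BR-3 cells and 17.7, 17.6 and 18.6 FPKM in SK/EPI cells. In FPKM this was the largest drop of the family, to 0.540 times the parental level without overlap (log2 fold change -0.85, SE 0.04, adjusted p = 2.74e-07).

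ABCC11 (chromosome 16, 48166910 to 48247568, minus strand), known for its activity in apocrine glands and for exporting steroid sulfates, went from a clear signal to almost no reads. It had 244, 252 and 321 reads in the SK-BR-3 libraries, which are 2.12, 1.93 and 2.33 FPKM, and 0, 1 and 2 reads in the SK/EPI libraries. The pooled read rate was 290 times higher in SK-BR-3 cells (exact 95% interval 98.9 to 1409, counting error only), and the fitted log2 fold change was -1.63 (SE 0.06, adjusted p = 8.66e-08). Of its exonic bases, 4.04% lie within exons of LONP2 on the opposite strand, and 1.19% are shared with AC096996.2 on its own strand. Whether the counting used strand is not given in the sources used here.

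ABCC6 (chromosome 16, 16148928 to 16223522, minus strand), the gene of the connective tissue disease pseudoxanthoma elasticum, was near the lower end of detection. It had 27, 28 and 33 reads in SK-BR-3 cells and 4, 5 and 13 reads in SK/EPI cells. The groups did not overlap, the ratio was 0.236 and the log2 fold change was -0.21 (SE 0.04, adjusted p = 0.00114). Of the 50-base windows of its longest coding transcript, 15.1% also occur in another gene, chiefly the partial copies ABCC6P1 and ABCC6P2, so reads of these genes may have been divided between them and the value is uncertain.

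ABCC10 (chromosome 6, 43427366 to 43450430, plus strand) encodes an exporter able to carry taxanes and estradiol glucuronide. It measured 3.92, 3.54 and 4.06 FPKM in SK-BR-3 cells and 4.24, 4.14 and 4.29 FPKM in SK/EPI cells. The resistant libraries all lay above the parental ones, yet the difference did not pass the test, at a log2 fold change of 0.11 with a 95% interval of -0.02 to 0.24 (adjusted p = 0.112). Reads on genes made up 99.8% to 101% of the library totals implied by the FPKM values in SK-BR-3 and 92.8% to 95.4% in SK/EPI libraries. When values were scaled to the reads on genes, the log2 fold change was 0.18 and ABCC10 was called higher (adjusted p = 0.0250). ABCC12 (chromosome 16, 48081006 to 48156018, minus strand), the neighbour of ABCC11, had 2, 0 and 2 reads in SK-BR-3 cells and none in SK/EPI cells, and no fold is given.

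**Figure D2:**
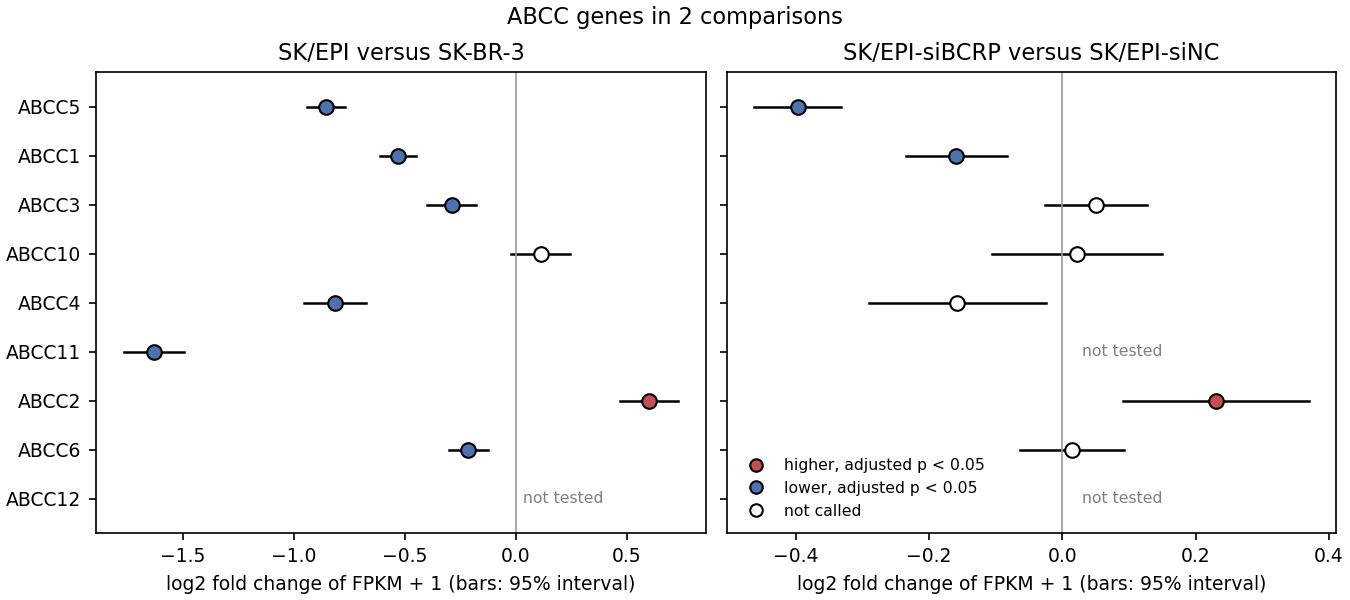
Log2 fold change of FPKM + 1 for each ABCC gene with its 95% interval, SK/EPI versus SK-BR-3 (left) and SK/EPI-siBCRP versus SK/EPI-siNC (right); filled points passed an adjusted p of 0.05. On the left 6 genes lie below 0 and ABCC2 above it, and on the right ABCC5 and ABCC1 lie below 0 and ABCC2 above it. The horizontal scales of the panels differ.

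The summed level of the 9 genes was lower in SK/EPI cells, and its make-up changed. The sum was 81.3 ± 1.18 FPKM in SK-BR-3 and 52.0 ± 0.587 FPKM in SK/EPI libraries, with ranges of 80.4 to 82.6 and 51.4 to 52.6 that did not overlap. ABCC5 went from 41.0% ± 0.853 to 34.6% ± 1.18 of the sum and ABCC1 from 38.7% ± 0.561 to 41.2% ± 0.986. ABCC10, which was not called itself, went from 4.73% ± 0.389 to 8.12% ± 0.211 of the smaller sum. These shares are descriptions without a test.

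**Figure D3:**
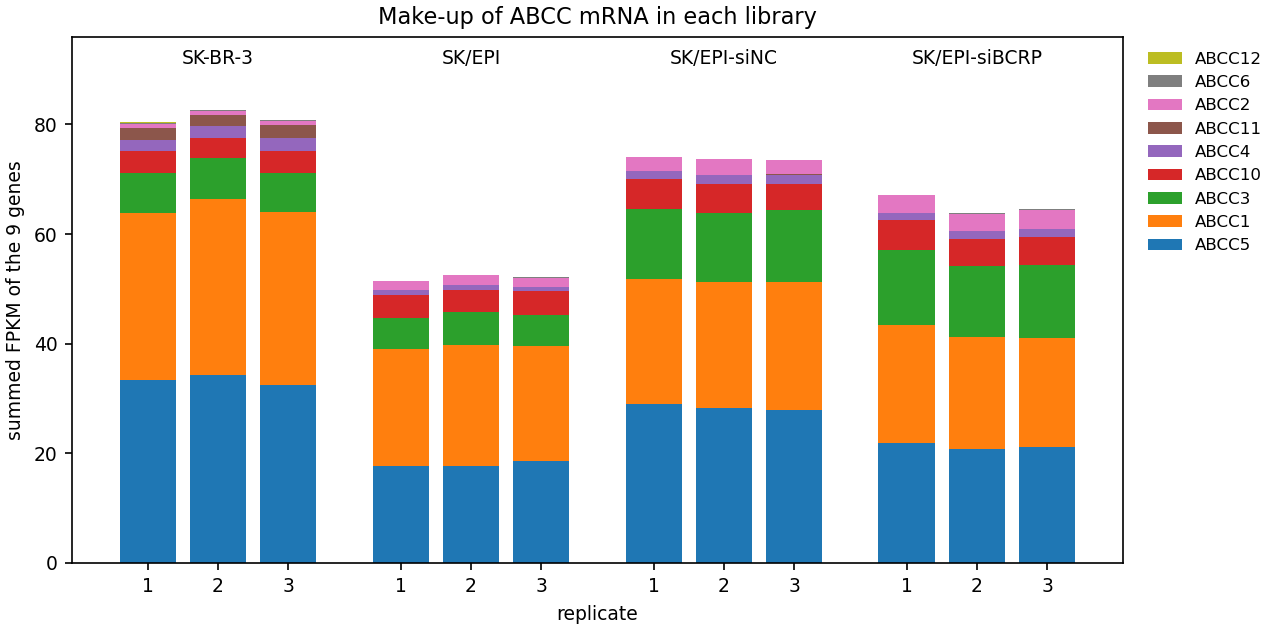
Summed FPKM of the 9 ABCC genes in each library, stacked by gene, with the replicate number under each bar. SK-BR-3 bars reach 80.4 to 82.6, SK/EPI bars 51.4 to 52.6, SK/EPI-siNC bars 73.6 to 74.1 and SK/EPI-siBCRP bars 63.8 to 67.2; the SK/EPI and SK/EPI-siNC bars come from separate tables and were not compared by a test.

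The bases just upstream of the start are shown for ABCC2, the member that rose, and for ABCC4 and ABCC5, lower members with a single start in RefSeq, because their base composition differs widely. The stretches are from RefSeq (GRCh38.p14), 5′ to 3′ on the strand of the gene, and bases that GENCODE 29 places inside the gene are left out. They are chr10:99782390-99782639 (plus strand) for ABCC2, chr13:95301476-95301701 (minus strand) for ABCC4 and chr3:184018016-184018134 (minus strand) for ABCC5. Capitals mark a match, on either strand, to the TATA box letters TATAAA, the GC box letters GGGCGG, the antioxidant response core TGACNNNGC or the letters CCAAT.
ABCC2: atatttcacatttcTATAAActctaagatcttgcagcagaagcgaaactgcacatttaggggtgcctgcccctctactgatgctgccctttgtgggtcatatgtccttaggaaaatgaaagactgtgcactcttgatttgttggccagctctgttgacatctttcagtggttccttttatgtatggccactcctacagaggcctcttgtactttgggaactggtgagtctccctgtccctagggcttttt
ABCC4: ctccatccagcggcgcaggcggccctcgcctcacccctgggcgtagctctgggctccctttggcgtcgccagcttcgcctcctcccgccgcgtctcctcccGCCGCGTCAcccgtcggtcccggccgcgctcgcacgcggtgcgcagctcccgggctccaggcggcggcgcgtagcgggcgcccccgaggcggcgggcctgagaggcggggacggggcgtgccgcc
ABCC5: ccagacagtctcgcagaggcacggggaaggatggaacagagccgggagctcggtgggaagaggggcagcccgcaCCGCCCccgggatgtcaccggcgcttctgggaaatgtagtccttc

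Over the full 250 bases before the start, ABCC2 was 45.6% G or C with 1 CG dinucleotide, ABCC4 was 80.4% with 42 and ABCC5 was 64.8% with 21. The median over 35116 RefSeq promoters was 11 CG dinucleotides, with quartiles at 3 and 23. TATAAA was found in 10.7% of these promoters, and it occurs once in the ABCC2 window and once in the part of the ABCC5 window that is not shown. GGGCGG, in 42.6% of promoters, occurs once in ABCC5. TGACNNNGC, in 10.9%, occurs once in ABCC4, the reverse complement of the capitals above. CCAAT, in 32.0%, was not found in these 3 windows.

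Genes close to ABCC11 were lower in SK/EPI cells as well. Within 500 kb of ABCC11, 4 of 5 tested genes were downregulated and none was upregulated. LONP2, a peroxisomal protease gene that overlaps ABCC11, went from 15.0 to 8.90 FPKM (log2 fold change -0.69, adjusted p = 6.97e-06), and PHKB, a phosphorylase kinase subunit gene 465 kb away, went from 14.9 to 8.99 FPKM (log2 fold change -0.67, adjusted p = 8.44e-06). The lncRNA AC023818.1 and N4BP1 were lower by smaller steps, and SIAH1 was not called at a log2 fold change of 0.13. None of the 5 had the near-complete loss seen for ABCC11. Around ABCC4, 2 of 4 tested genes were lower, DNAJC3 from 41.0 to 14.6 FPKM and GPR180 from 5.57 to 2.93 FPKM, and TGDS and DNAJC3-DT were not called. Around ABCC2, 5 of 14 were higher and 4 lower, and around ABCC5, 6 of 22 were higher and 9 lower. Around ABCC10, which was not called, 17 of 30 were higher and 5 lower. Around ABCC1, 4 of 12 were higher and 5 lower, and around ABCC3, 6 of 21 were higher and 8 lower. The window of ABCC6 overlaps that of ABCC1 (3 of 10 higher, 4 lower). That of ABCC12 overlaps the window of ABCC11 and counts ABCC11 itself (0 of 7 higher, 6 lower). The window of 500 kb was chosen after the values were seen, and these counts are descriptions beside the 37.9% and 37.0% over all genes.

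**Figure D4:**
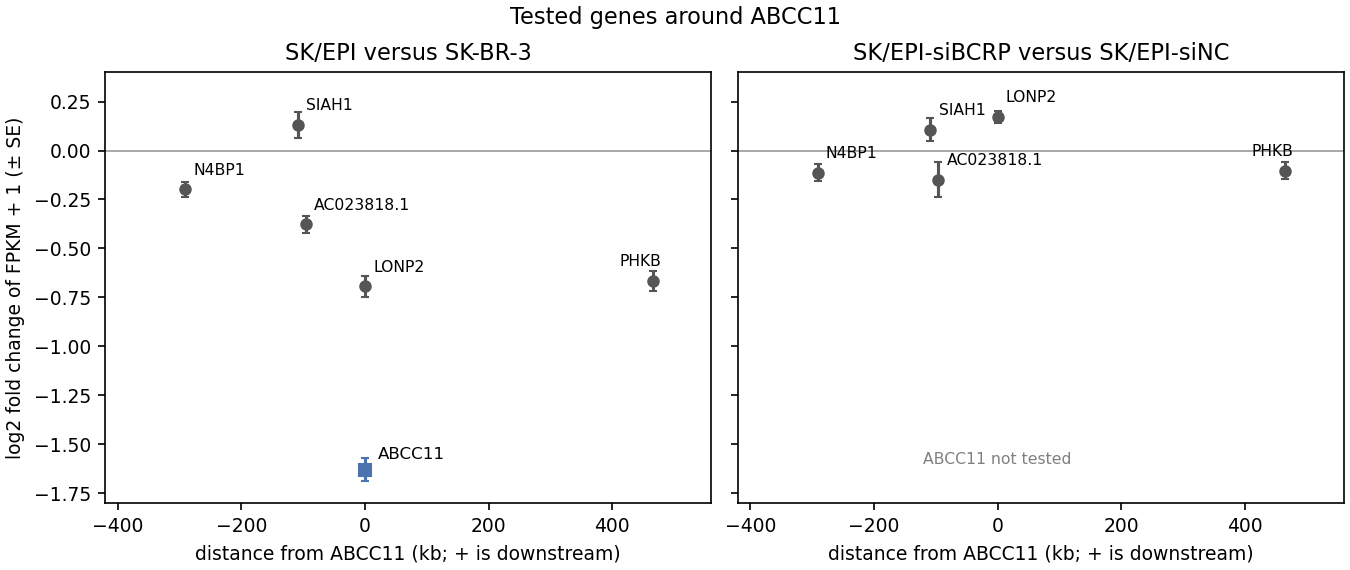
Log2 fold change (± SE) of the tested genes within 500 kb of ABCC11 against their distance in kb, positive in the direction of ABCC11 transcription, in both comparisons. LONP2, PHKB, AC023818.1 and N4BP1 lie below 0 in SK/EPI versus SK-BR-3, far above the -1.63 of ABCC11, and the 5 genes lie between -0.15 and 0.17 after BCRP silencing, where ABCC11 was not tested.

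The second comparison asks what changed among the MRP genes when BCRP was silenced in the resistant cells. The siRNA sequence is shown because its seed could also pair with ABCC transcripts. It is the antisense strand that the study lists for siBCRP #1, with the seed (bases 2 to 8 from the 5′ end) in capitals. The sample labels say only siBCRP, and the duplex number comes from the study's own heading for these RNA-seq results, so the seed matches hold only if that duplex was used.
siBCRP #1 antisense strand: aUAACCAGcugauucaaaguauccc

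Among the longest coding transcripts of 19684 genes, the full target was found only in ABCG2. The 7 bases that pair with the seed, CTGGTTA, were found once each in ABCC3, ABCC5, ABCC11 and ABCC12, and not in ABCC1, ABCC2, ABCC4, ABCC6 or ABCC10. They occur in 13.9% of these transcripts. Whole transcripts were searched, and this share takes no account of their length, which was 4862 to 6594 bases for the members. Of the members with a seed match, ABCC5 was lower after siBCRP, ABCC3 was not called, and ABCC11 and ABCC12 had too few reads to test. ABCC1, without a match, was lower too. A match is a description of the letters only, and an effect through the seed was not tested.

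After BCRP silencing, ABCC5 and ABCC1 were downregulated, ABCC2 was upregulated, and ABCC3, ABCC4, ABCC6 and ABCC10 were not called. This is 1 higher and 2 lower of 7 tested members, beside 19.4% higher and 18.7% lower over 16298 genes tested. The median log2 fold change of the 7 members was 0.01. ABCC5 measured 28.97, 28.2 and 27.8 FPKM in SK/EPI-siNC cells and 21.8, 20.8 and 21.2 FPKM in SK/EPI-siBCRP cells. The silenced libraries all lay lower, at 0.751 times the control level (log2 fold change -0.40, SE 0.03, adjusted p = 5.04e-05), and this was the largest log2 fold change among the tested members.

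ABCC1 measured 22.8, 23.1 and 23.4 FPKM in SK/EPI-siNC cells and 21.5, 20.4 and 19.9 FPKM in SK/EPI-siBCRP cells. The groups were close but did not overlap, at a ratio of 0.892 (log2 fold change -0.16, SE 0.03, adjusted p = 0.00734). ABCC2 measured 2.56, 2.85 and 2.62 FPKM in SK/EPI-siNC cells and 3.23, 3.15 and 3.55 FPKM in SK/EPI-siBCRP cells. It rose to 1.24 times the control level without overlap (log2 fold change 0.23, SE 0.06, adjusted p = 0.0200). The call was kept in only 3 of the 6 fits that each left out 1 library, and such fits also have less power. The adjusted p was 0.0620 without SK/EPI-siBCRP replicate 3, 0.0639 without SK/EPI-siNC replicate 1 and 0.0602 without SK/EPI-siNC replicate 3. It was 0.0501 when genes with few reads were kept in the fit.

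ABCC4 measured 1.49, 1.67 and 1.69 FPKM in SK/EPI-siNC cells and 1.27, 1.34 and 1.41 FPKM in SK/EPI-siBCRP cells. The groups did not overlap, yet the difference missed the threshold (log2 fold change -0.16, 95% interval -0.29 to -0.02, adjusted p = 0.0648), and it passed when the recovered reads were fitted with voom (adjusted p = 0.0207). ABCC3 measured 12.8, 12.5 and 13.1 FPKM in SK/EPI-siNC cells and 13.7, 12.9 and 13.2 FPKM in SK/EPI-siBCRP cells, with overlapping groups and a log2 fold change of 0.05 (95% interval -0.03 to 0.13, adjusted p = 0.271). ABCC10 was also within its spread, at 4.80 to 5.37 and 5.07 to 5.55 FPKM (log2 fold change 0.02, 95% interval -0.10 to 0.15, adjusted p = 0.777). ABCC6 had 7 to 12 and 10 to 14 reads and a log2 fold change of 0.01 (95% interval -0.06 to 0.09, adjusted p = 0.763). ABCC11 had 5, 7 and 10 reads in SK/EPI-siNC cells and 4, 5 and 4 in SK/EPI-siBCRP cells, which was too few for the test, and ABCC12 had none.

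The sum of the 9 genes was 73.8 ± 0.294 FPKM in SK/EPI-siNC and 65.2 ± 1.80 FPKM in SK/EPI-siBCRP libraries, with no overlap. ABCC5 made up 38.4% ± 0.626 of the sum in SK/EPI-siNC and 32.7% ± 0.206 in SK/EPI-siBCRP cells. The share of ABCC3 was 17.3% ± 0.468 and 20.4% ± 0.134. ABCB1, the P-gp gene, was slightly lower with siBCRP, at 187 ± 2.88 compared with 206 ± 0.397 FPKM (log2 fold change -0.14, adjusted p = 0.00177).

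SK/EPI and SK/EPI-siNC cells share the resistant background, but their values stand in separate tables and were set side by side without a test. The level in SK/EPI-siNC divided by that in SK/EPI was 2.20 for ABCC3, 1.94 for ABCC4, 1.58 for ABCC5, 1.57 for ABCC2, 1.22 for ABCC10 and 1.08 for ABCC1. The median ratio of genes at 1 FPKM or more was 1.03, and 4.41% of these genes lay at or above ABCC3. Transfection and the table cannot be told apart here. For every one of these members except ABCC1 this ratio was farther from 1 than the ratio of SK/EPI-siBCRP to SK/EPI-siNC.

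Genes that act before, beside or after MRP transport were followed in lists. Each list holds genes chosen for their role, and its counts are descriptions beside the shares over all genes. Those shares were 37.9% higher and 37.0% lower in SK/EPI cells, and 19.4% higher and 18.7% lower after BCRP silencing. Among 7 other ABC transporter genes, 5 were tested in SK/EPI compared with SK-BR-3 cells, and ABCB1 and ABCG2 were higher while ABCA3 (14.1 to 10.4 FPKM) and ABCA2 (13.9 to 11.5 FPKM), whose lipid transporters act mainly in lysosome-related membranes inside the cell, were lower. After BCRP silencing 2 of 6 tested were higher, ABCA2 (log2 fold change 0.50, adjusted p = 9.46e-05) and ABCA3 (0.19, adjusted p = 0.00521), and ABCG2 and ABCB1 were lower. ABCC8 and ABCC9, the ABCC members that regulate potassium channels instead of exporting drugs, had too few reads to test. Their pore subunit gene KCNJ11 went from 2.00 to 0.0871 FPKM in SK/EPI cells (log2 fold change -1.46, adjusted p = 3.09e-06), where it had 1 to 8 reads, and it was not called after silencing (log2 fold change -0.03).

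Of 10 genes listed under glutathione supply, all tested, 4 were higher and 4 lower in SK/EPI cells. The list also holds CHAC1 and CHAC2, whose enzymes break glutathione down, and CHAC1 was among the higher genes (0.538 to 1.10 FPKM). GSS, the second enzyme of glutathione synthesis, rose from 13.0 to 27.4 FPKM. The cystine importer gene SLC7A11 rose from 0.547 to 1.61 FPKM, while SLC3A2, the gene of its partner subunit, fell from 103.5 to 92.5 FPKM. GCLC, the catalytic subunit of the rate-limiting enzyme, fell from 10.3 to 6.52 FPKM, while the other subunit gene, GCLM, rose from 11.4 to 13.8 FPKM. GGCT, which degrades gamma-glutamyl amino acids, fell from 85.9 to 45.9 FPKM, and GSR fell from 35.7 to 23.8 FPKM. After BCRP silencing 3 of 9 were higher, with CHAC2 from 4.27 to 6.27 FPKM and the glutathione reductase gene GSR from 25.1 to 32.9 FPKM before the cystine importer subunit gene SLC3A2 (70.2 to 89.8 FPKM), and GSS was the only lower gene (26.2 to 23.5 FPKM).

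Of 12 tested conjugating enzyme genes, 6 were higher and 4 lower in SK/EPI cells. SULT2B1, a sterol sulfotransferase, rose from 0.853 to 7.70 FPKM and MGST1, a membrane glutathione transferase, from 15.8 to 34.3 FPKM, while GSTM4 fell from 10.7 to 5.96 FPKM and MGST3 from 8.12 to 5.59 FPKM. After silencing 5 of 12 were higher and 1 lower, with GSTM4 from 6.40 to 11.9 FPKM and SULT2B1 from 3.75 to 4.86 FPKM, and GSTA4 fell from 4.91 to 3.67 FPKM. Genes that break down exported glutathione conjugates were split, 4 higher and 5 lower of 9 tested in SK/EPI cells. The gamma-glutamyl transferase genes GGT1 and GGT6 fell from 7.15 to 0.365 and from 16.1 to 2.75 FPKM, whereas GGT5 rose from 1.199 to 1.86 FPKM and the peptidase gene LAP3 from 11.6 to 19.8 FPKM. After silencing, LAP3 rose (46.6 to 52.1 FPKM), GGT7 fell (19.0 to 16.9 FPKM) and the other 7 were not called.

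Among transcription regulators of ABCC genes, 5 of 9 tested were higher and 3 lower in SK/EPI cells. NFE2L2, the factor NRF2 of the oxidative stress response, rose from 9.32 to 14.5 FPKM. KEAP1, which encodes the inhibitor of NRF2, rose too, from 13.6 to 17.1 FPKM. The aryl hydrocarbon receptor gene AHR rose from 3.21 to 5.50 FPKM, while its partner gene ARNT fell from 8.74 to 5.96 FPKM. The nuclear receptor genes RXRA and NR1I3 fell from 14.3 to 10.2 and from 0.575 to 0.182 FPKM. After silencing 4 of 8 were lower and none higher. These included NFE2L2 (16.0 to 14.3 FPKM, adjusted p = 0.00337) and ARNT (6.02 to 5.34 FPKM, adjusted p = 0.0239). All 7 scaffold genes that hold transporters at the membrane were called in SK/EPI cells, 2 higher and 5 lower. Over all genes tested, 37.9% were higher and 37.0% lower there. MSN, encoding moesin, reached 56.7 ± 0.354 FPKM in SK/EPI cells from no more than 4 reads in a parental library, and PDZK1 rose from 0.616 to 3.801 FPKM. SLC9A3R2 fell from 67.9 to 28.4 FPKM, and RDX, encoding radixin, a partner of ABCC2 in liver, from 19.8 to 12.01 FPKM. RDX fell again after silencing, from 8.24 to 3.95 FPKM (log2 fold change -0.90, adjusted p = 1.09e-05), where 3 of 7 scaffold genes were lower and 2 higher, with MSN (67.0 to 61.0 FPKM) and SLC9A3R1 (123 to 116 FPKM) also lower and SNX27 and SLC9A3R2 higher (log2 fold changes 0.21 and 0.20).

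Prostaglandin genes are listed because ABCC4 exports prostaglandin E2. In SK/EPI cells 2 of 6 tested were higher and 4 lower. PTGES, a prostaglandin E synthase gene, rose from 47.4 to 111 FPKM, and PTGS1, a cyclooxygenase gene, from 7.52 to 9.27 FPKM. PTGES2 fell from 47.9 to 26.2 FPKM, and HPGD, which inactivates prostaglandins, had 0 or 1 read in a resistant library against 213 to 262 in a parental one. After silencing all 4 tested genes were higher, with PTGS1 from 18.9 to 25.1 FPKM and PTGES2 from 26.3 to 32.2 FPKM. Over all genes tested, 19.4% were higher after silencing. Of the uptake carriers that bring organic anions and folates into cells, 3 of 5 tested were higher and 2 lower in SK/EPI cells. SLCO4A1 rose from 13.7 to 31.3 FPKM and the folate carrier gene SLC46A1 from 1.78 to 4.56 FPKM, and SLCO3A1 rose as well (1.64 to 3.48 FPKM). The reduced folate carrier gene SLC19A1 fell from 8.03 to 5.47 FPKM and the prostaglandin carrier gene SLCO2A1 from 0.196 to 0.0932 FPKM. After silencing 3 of 4 were higher and none lower, namely SLCO3A1 (3.54 to 4.59 FPKM), SLC19A1 (5.17 to 6.58 FPKM) and SLCO4A1 (23.8 to 28.1 FPKM).

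**Figure D5:**
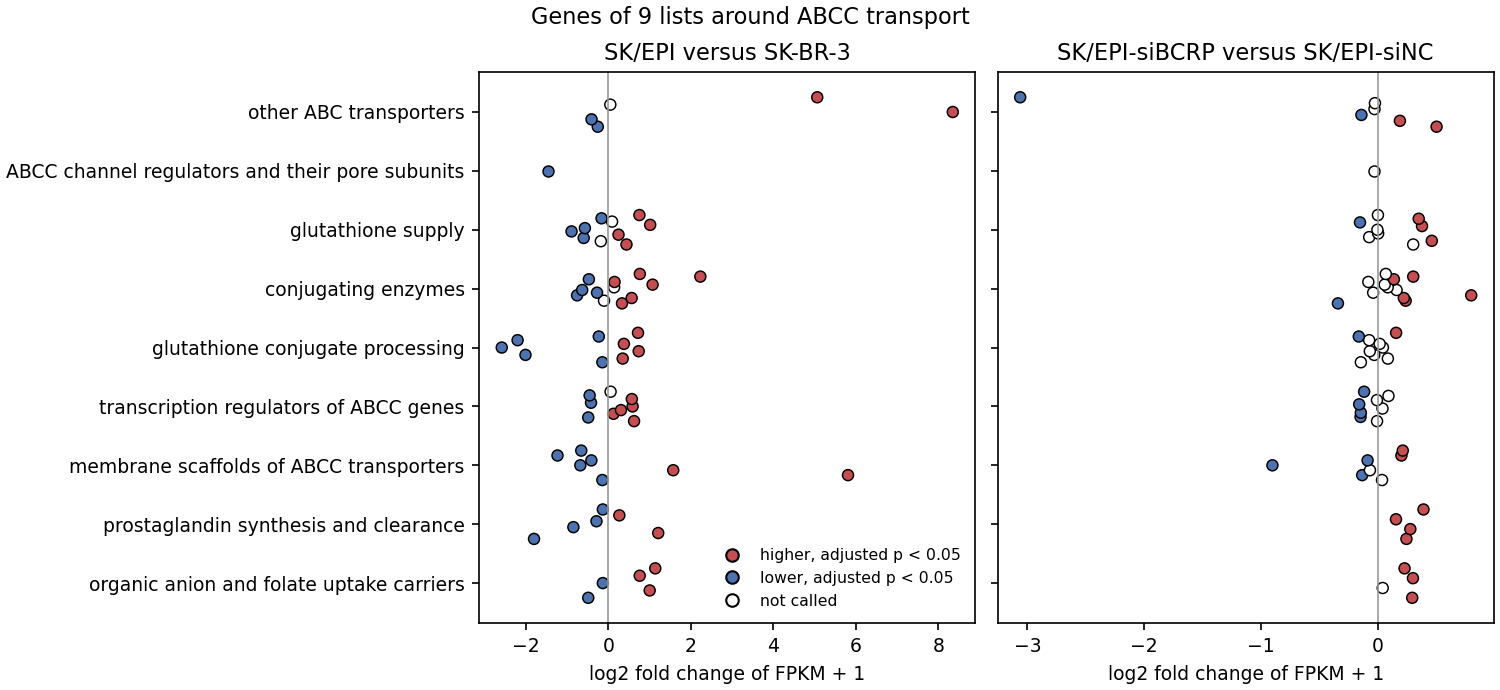
Log2 fold change of FPKM + 1 for each tested gene of the 9 lists, SK/EPI versus SK-BR-3 (left) and SK/EPI-siBCRP versus SK/EPI-siNC (right), with 1 point per gene and filled points past an adjusted p of 0.05. Most lists hold genes on both sides of 0 on the left, ABCB1, MSN and ABCG2 lie farthest to the right there, and on the right ABCG2 lies at -3.06 and all 4 prostaglandin genes above 0. The horizontal scales of the panels differ.

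Across the 12 libraries, the genes whose log2(FPKM + 1) followed ABCC5 most closely among 10629 coding genes were WIPI1 (Pearson r = 0.991), ZSWIM8 (0.987) and TPBG (0.985). For ABCC1 they were ARHGAP1 (0.996), PTGFRN (0.994) and KLHL20 (0.994). The points share group and table, so these values describe a common pattern over 4 groups.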

How the data were processed

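Poly-A selected RNA of 12 libraries was sequenced by NovoGene. The submitters' processing notes list HISAT2 2.0.5, featureCounts 1.5.0-p3 and hg38. The authors deposited 2 tables of FPKM for 58735 genes without raw counts, and the tables name no unit. Deposited values times the merged exon length (GENCODE 29, Ensembl 94, GRCh38) were whole multiples of a step in 100% of genes above 0 (tolerance 0.05), which gave the reads per gene, and column sums differed between libraries, unlike TPM.

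Each table was fitted alone with limma 3.58.1 in R 4.3.3 (lmFit, eBayes with trend) on log2(FPKM + 1) with the group as the only term, because the 2 tables need not share a normalization. Genes needed 10 reads at the median library size in 3 libraries and 15 reads in all. Benjamini-Hochberg adjustment ran over all genes tested, and the threshold was 0.05. Intervals for low reads are exact and cover counting error only. Descriptions were made in Python 3.11.15 (pandas 2.3.3, numpy 2.4.6, scipy 1.17.1), and figures with matplotlib 3.10.9.

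Members and lists were chosen with earlier results of these data known. In lists, up to 2 rises and 2 falls per comparison were named among genes called with a mean of at least 1 FPKM in either group. More were named where the count was 3 or fewer. CHAC1, GCLM, SLC3A2, GSR and KEAP1 in SK/EPI compared with SK-BR-3 cells were named outside this rule. Neighbours, seed matches, promoters and other genes were chosen after values were seen. Replicate libraries differed by more than sampling noise (chi-square per degree of freedom 1.64 to 4.27). The alternatives were other filters, scalings, pseudocounts, voom, a replicate block, a fold threshold and leaving out each library.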

Additional observations from a re-analysis of the deposited data

How the results depend on the processing

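Of 207 alternative values of the members' log2 fold changes, 199 kept their direction where either value was called and their side of the threshold, 4 lost the call and 4 gained it, and none reversed. In SK/EPI versus SK-BR-3, 2 members instead of 1 were higher when values were scaled by reads on genes or by reads outside the mitochondrial chromosome, and with voom, through ABCC10 (adjusted p = 0.0250, 0.0181 and 0.0499). A log2 fold change of at least 1 left 0 members higher and 1 lower (ABCC11) there, and 0 higher and 0 lower after BCRP silencing. Without a filter on low genes 0 members were higher after silencing, with 34542 genes tested, and leaving out each library in turn gave 0 to 1. In the other settings the number lower was 6 and 2, except that voom added ABCC4 after silencing (3 lower) and that asking for 10 reads in every library left 4 lower in SK/EPI, since ABCC6 and ABCC11 were then not tested. In the fit with a replicate block the counts were 1 higher and 6 lower, and 1 higher and 2 lower, with ABCC2 at an adjusted p of 0.0468. Deviations from the group mean correlated at -0.08 to 0.03 and at 0.03 to 0.12 between same-numbered libraries. Between other libraries of the compared groups they correlated at -0.05 to 0.10 and at -0.12 to 0.06. The labels do not say whether equal numbers mark a pair, and these small correlations cannot settle it. Recovered reads in place of FPKM raised the share of ABCC5, the member with the longest merged exons, in SK-BR-3 from 41.0% to 49.96%. In SK/EPI they raised it from 34.6% to 43.0%, above the 33.9% of ABCC1, which was first in FPKM. Depth limits ABCC6, ABCC11 in resistant cells and ABCC12.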
